A study of Mus musculus with 9 samples.

Results

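The integrin and laminin subunits were taken as the protein-coding genes of the count table named Itga or Itgb with a number (and Itga2b), Itgad, Itgae, Itgal, Itgam, Itgav and Itgax, and Lama, Lamb or Lamc with a number. The 36 such genes reported here stood among the 54532 genes of the table, of which 22046 were protein-coding. They comprised 18 integrin alpha subunits, 8 integrin beta subunits and 10 laminin chains. The rule used gene names only and no measured value.

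Integrins are receptors that span the cell membrane as a pair of an alpha and a beta subunit, bind the matrix outside the cell and connect to the actin skeleton inside it. The alpha subunit largely sets the ligand, so that the family is sorted into receptors for laminin, for collagen and for proteins that carry the RGD motif, such as fibronectin and vitronectin, besides the receptors of leukocytes. Laminins are secreted trimers of an alpha, a beta and a gamma chain and form the basement membrane, a sheet that surrounds each mature adipocyte but not the fibroblasts from which adipocytes arise, and laminin with an alpha4 chain is typical of adipocytes.

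RNA was measured in 9 libraries of 3T3-L1, a mouse line of preadipocyte fibroblasts, 3 for each of 3 groups. All cells were first held at confluence for 3 days, and Undifferentiated cells received no differentiation medium. Differentiated cells were kept for 3 days in medium that held 10 μg/mL insulin, 1 μM rosiglitazone, 0.5 mM of the phosphodiesterase inhibitor IBMX and 1 μM dexamethasone, and Lysfree cells in the same medium to which no lysine had been added, although traces were left. All cells came from this single line. The differentiation medium was prepared from a base lacking arginine and lysine, with fetal bovine serum, while growth medium held bovine calf serum. Arginine was added back for both groups in this medium and lysine for Differentiated only. The hormones, the serum, the base medium and any added days in culture thus cannot be told apart between Undifferentiated and the other groups. The comparisons ask how the medium changed the subunits with lysine (Differentiated vs Undifferentiated), without it (Lysfree vs Undifferentiated), and how the lack of lysine changed them (Lysfree vs Differentiated). Levels are given in FPKM, fragments per kilobase of gene scaled to a total for the library that is not the sum of its counts. A gene was called changed in edgeR's quasi-likelihood test at an adjusted p under 0.05 and a fold change of at least 2. Nothing in the labels states that the 3 libraries of a group came from separate cultures, so p-values measure the spread between these libraries, which may be technical.

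Total counts were 15880144 to 21806693 per library. Lysfree 1 stood apart from its group, with a chi-square per degree of freedom of 43.3 and 44.4 against Lysfree 2 and Lysfree 3, where the other pairs of one group gave 2.76 to 12.3. The labelled fibroblast type was checked on 11 fibroblast markers, whose summed level was 5477 to 5868 FPKM in Undifferentiated, 1371 to 1380 FPKM in Differentiated and 2010 to 2096 FPKM in Lysfree. Most of the Undifferentiated sum was collagen, with means of 1887 FPKM for Col1a1, 1282 FPKM for Col1a2 and 1365 FPKM for Col3a1. Singly, 0 fibroblast markers were called higher and 9 lower in Differentiated vs Undifferentiated, where 10.4% and 11.4% of all genes tested were. In Lysfree vs Undifferentiated 0 were higher and 7 lower, where 5.52% and 8.76% of all genes were. Summed over 11 adipocyte markers, the level was 320.3 to 404 FPKM in Undifferentiated, 6952 to 7307 FPKM in Differentiated and 292 to 408 FPKM in Lysfree. Singly, 1 of these 11 adipocyte markers was called higher and 5 lower in Lysfree vs Undifferentiated (median log2 fold change −1.43), where 5.52% and 8.76% of all genes tested were. Slc2a4, Retn and Lep had at most 3 counts in every Lysfree library. In a culture of mixed cells, fewer cells of a type and less RNA per cell cannot be told apart.

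Of the 36 subunits, 18 reached a mean of 1 FPKM in at least 1 group. A further 11 stayed under 1 FPKM but exceeded 3 counts in some library, and 7 had at most 3 counts in every library. The highest mean level was that of Itgb1 in Undifferentiated, at 116 FPKM, of Lamc1 in Differentiated, at 111 FPKM, and of Itgb1 in Lysfree, at 109.7 FPKM.

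Of the 35 subunits tested in Differentiated vs Undifferentiated, 5 were higher (Itga6, Itga7, Itgad, Itgae and Lamb3) and 11 were lower (Itga11, Itga2b, Itga8, Itga9, Itgal, Itgav, Itgb2, Itgb3, Itgb5, Lama2 and Lamb2), where 21.8% of the 24402 genes tested were called, 10.4% higher and 11.4% lower. Their median log2 fold change was −0.82, against 0.02 over all genes. In Lysfree vs Undifferentiated, 1 of 34 was higher (Itgb7) and 7 were lower (Itga2, Itga2b, Itga8, Itga9, Itgal, Lama2 and Lamb2), where 14.3% of 23994 genes were called, 5.52% higher and 8.76% lower, and the median was −0.63 against −0.02. In Lysfree vs Differentiated, 5 of 34 were higher (Itga11, Itga9, Itgb2, Itgb7 and Lama5) and 6 were lower (Itga2, Itga6, Itga7, Itgad, Itgae and Lamb3), where 18.7% of 24130 genes were called, 8.14% higher and 10.5% lower, and the median was 0.04 against −0.06. FPKM values did not overlap between the groups for 24 of 35, 23 of 34 and 24 of 34 subunits in these comparisons (8 and 16, 6 and 17, and 12 and 12 of them higher and lower), where 50.9%, 43.5% and 46.6% of all genes tested did not overlap (26.2% and 24.7%, 20.2% and 23.2%, and 21.3% and 25.3% higher and lower). Lama3, with at most 3 counts in every library, is among the subunits without overlap in Differentiated vs Undifferentiated and in Lysfree vs Differentiated. The scale of FPKM relative to counts also differed between the groups, which moves this overlap. The counts of subunits called higher and lower were the same without Lysfree 1. The first 2 comparisons share the Undifferentiated libraries, and the last one is the test of their difference.

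**Figure D1:**
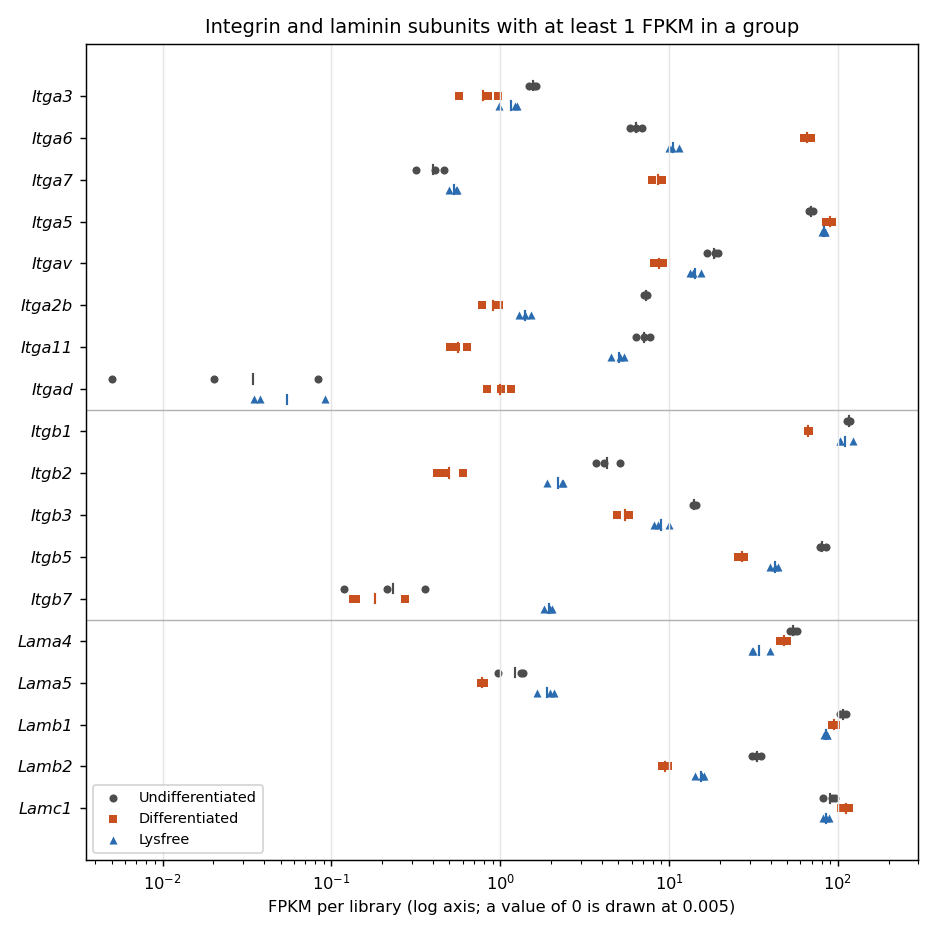
Level of each integrin and laminin subunit that reached a mean of 1 FPKM in a group, in FPKM on a log axis, with 1 symbol per library and a short line at the mean of the 3 libraries of a group (circles Undifferentiated, squares Differentiated, triangles Lysfree). Itga6, Itga7 and Itgad were highest in Differentiated, Itga11 and Itgb2 were lowest there, and Itgb7 was highest in Lysfree.

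For the subunits at 1 FPKM or more that were higher in Lysfree than in Differentiated, the promoter is shown where the RefSeq promoter table (GRCm38.p6) holds one, from 250 bases before to 50 bases after the start of transcription. The table matched 23 of the 36 subunits with 26 promoters. Itga6, Itga7, Itgad, Itgb2, Itgb3, Lama4 and Lamc1, all at 1 FPKM or more, were not among them. Some windows lay far from the start of the gene in the count table, by 105002 bases for Itga9 and by 94295 and 94544 bases for Lamb3. The sequences, 5′ to 3′ on the strand of the gene, belong to Itga11 (chr9:62677605-62677904, plus strand), Itgb7 (chr15:102231886-102232185, minus strand) and Lama5 (chr2:180225810-180226109, minus strand), and capitals mark the GC box GGGCGG on either strand.
Itga11: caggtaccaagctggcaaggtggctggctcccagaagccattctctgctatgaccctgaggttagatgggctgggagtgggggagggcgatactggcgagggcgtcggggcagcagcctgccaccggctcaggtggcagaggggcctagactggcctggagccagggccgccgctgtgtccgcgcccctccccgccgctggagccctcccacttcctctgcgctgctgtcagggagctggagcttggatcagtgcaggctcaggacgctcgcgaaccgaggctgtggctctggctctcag
Itgb7: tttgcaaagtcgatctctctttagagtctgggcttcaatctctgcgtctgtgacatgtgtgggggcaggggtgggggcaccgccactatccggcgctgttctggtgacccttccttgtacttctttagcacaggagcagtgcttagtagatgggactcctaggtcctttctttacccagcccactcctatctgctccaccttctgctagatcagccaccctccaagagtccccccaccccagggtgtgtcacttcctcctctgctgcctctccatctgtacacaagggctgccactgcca
Lama5: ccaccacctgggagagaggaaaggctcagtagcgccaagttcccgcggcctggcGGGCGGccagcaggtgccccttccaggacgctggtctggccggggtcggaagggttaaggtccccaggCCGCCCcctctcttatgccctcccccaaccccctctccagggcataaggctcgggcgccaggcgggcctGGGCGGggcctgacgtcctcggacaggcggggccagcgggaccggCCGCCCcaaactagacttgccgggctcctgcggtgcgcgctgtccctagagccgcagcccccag
The Lama5 window held 4 GC boxes, and those of Itga11 and Itgb7 held 0. Over the 23 matched subunits, 12 of 26 promoters held the GC box, against 35.7% of the 32851 promoters of the table. The amino acid response element TTGCATCA, the C/EBP motif TTGCNNCAA (which can overlap it) and the PPAR DR1 motif (AGGTCA repeated after 1 base) were in 0 of the 26, against 0.895%, 2.08% and 0.0396% of all promoters. Further motifs searched on both strands were the E-box CANNTG (22 of 26 against 72.3%), the CCAAT box CCAAT (4 against 37.4%), the TEAD motif GGAATG (3 against 14.7%), AP-1 TGANTCA (3 against 7.81%), the TATA box TATAAA (0 against 13.6%), CRE TGACGTCA (0 against 1.79%), the sterol response element TCACNCCAC (0 against 1.24%) and the glucocorticoid response element, AGAACA and TGTTCT with 3 bases between (0 against 0.00913%). The amino acid, sterol and glucocorticoid response elements, C/EBP, PPAR DR1 and CRE are rare over all promoters. As few as 26 promoters would often hold none, so these counts of 0 say little about the subunits. A match describes these letters in this window, not a bound site.

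Among the laminin receptors, Itga6 and Itga7 rose in the differentiation medium with lysine and were lower without it. Itga6 (chr2:71745616-71858416, mm10, plus strand) pairs with beta1 or beta4 and is a main receptor for laminin. Itga6 measured 6.33, 5.90 and 6.92 FPKM in the Undifferentiated libraries, 64.8, 68.9 and 63.4 FPKM in the Differentiated libraries, and 11.4, 10.0 and 10.4 FPKM in the Lysfree libraries. The 3 groups did not overlap, and the Lysfree libraries lay closer to Undifferentiated than to Differentiated. Itga6 was 10.1-fold higher in Differentiated than in Undifferentiated (log2 fold change 3.34 ± 0.06 SE, n = 3 libraries a group in this and all comparisons, edgeR adjusted p below the smallest number that could be stored). Against Differentiated, Itga6 was 5.92-fold lower in Lysfree (log2 fold change −2.56 ± 0.09 SE, edgeR adjusted p = 2.5e-15). Against Undifferentiated, Itga6 in Lysfree was 0.78 ± 0.11 (SE) higher on the log2 scale (edgeR adjusted p = 2.1e-07), less than the fold change set for a call.

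Itga7 (chr10:128933818-128958282, plus strand) is a laminin receptor best known from skeletal muscle. Itga7 measured 0.319, 0.411 and 0.463 FPKM in Undifferentiated, 8.90, 9.08 and 7.97 FPKM in Differentiated, and 0.548, 0.557 and 0.497 FPKM in Lysfree. The Differentiated libraries were far above the others. The log2 fold change was 4.43 ± 0.11 (SE) in Differentiated vs Undifferentiated (edgeR adjusted p below the smallest number that could be stored) and −3.95 ± 0.13 (SE) in Lysfree vs Differentiated (edgeR adjusted p = 1.1e-15). In Lysfree vs Undifferentiated it was 0.48 ± 0.23 (SE, edgeR adjusted p = 0.11), which was not a call. The 8 smooth and skeletal muscle markers summed to 59.3 to 60.9 FPKM in Undifferentiated, 5.75 to 6.58 FPKM in Differentiated and 23.9 to 26.0 FPKM in Lysfree. Of the 7 tested in Differentiated vs Undifferentiated, 1 was higher (Myh11) and 1 lower (Acta2), where 10.4% and 11.4% of all genes tested were. Of the 6 tested in Lysfree vs Differentiated, 2 were higher (Acta2 and Cnn1) and 2 lower (Des and Myh11), where 8.14% and 10.5% of all genes were. Myod1, Myog and Ckm, markers of skeletal muscle, had at most 3 counts in every library, and the part of the muscle markers in the result was not tested. Mettl7b overlaps Itga7 on the opposite strand and is counted with 60 counts over all 9 libraries.

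Itga3, the remaining laminin receptor, was much lower and did not share this pattern. Itga3 measured 1.47, 1.62 and 1.57 FPKM in Undifferentiated, 0.566, 0.969 and 0.846 FPKM in Differentiated, and 0.987, 1.22 and 1.25 FPKM in Lysfree. Its log2 fold change was −0.99 ± 0.16 (SE) in Differentiated vs Undifferentiated (edgeR adjusted p = 2.1e-09), just inside the fold change limit, −0.38 ± 0.18 (SE) in Lysfree vs Undifferentiated (edgeR adjusted p = 0.1) and 0.60 ± 0.21 (SE) in Lysfree vs Differentiated (edgeR adjusted p = 0.026). Without Differentiated 2 the first of these was −1.16 and would be a call.

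Among the receptors for RGD proteins, Itga5 stayed high while Itgav and Itga2b were lower in Differentiated. Itga5, which forms the main fibronectin receptor with beta1, measured 70.9, 67.8 and 68.7 FPKM in Undifferentiated, 89.7, 92.9 and 85.4 FPKM in Differentiated, and 84.1, 80.4 and 84.3 FPKM in Lysfree. On FPKM, Itga5 was the most abundant alpha subunit in all 9 libraries. On counts, not scaled by gene length, Itga6 was above it in Differentiated (means of 48.4% and 36.0% of alpha subunit counts). The log2 fold changes of Itga5 were 0.34 ± 0.05 (SE, edgeR adjusted p = 6.9e-11) in Differentiated vs Undifferentiated, 0.31 ± 0.09 (SE, edgeR adjusted p = 0.0079) in Lysfree vs Undifferentiated and −0.04 ± 0.08 (SE, edgeR adjusted p = 0.7) in Lysfree vs Differentiated, none of them a call.

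Itgav, a partner of beta1, beta3 and beta5 in vitronectin receptors, measured 19.5, 16.8 and 18.7 FPKM in Undifferentiated, 8.87, 9.17 and 8.15 FPKM in Differentiated, and 15.5, 13.9 and 13.3 FPKM in Lysfree. The Lysfree libraries lay between the other groups. Itgav fell by 1.10 on the log2 scale (SE 0.06, edgeR adjusted p = 1.3e-80) in Differentiated vs Undifferentiated. In Lysfree the differences from Undifferentiated (−0.32 ± 0.10 SE) and from Differentiated (0.77 ± 0.09 SE) were short of a call.

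Itga2b, the alpha subunit of the platelet fibrinogen receptor, measured 7.12, 7.41 and 7.27 FPKM in Undifferentiated, 0.984, 0.778 and 0.965 FPKM in Differentiated, and 1.28, 1.39 and 1.51 FPKM in Lysfree. It was low in both groups in the differentiation medium. Itga2b fell in both comparisons with Undifferentiated, with log2 fold changes of −3.03 ± 0.11 (SE, edgeR adjusted p = 5.8e-163) in Differentiated and −2.33 ± 0.14 (SE, edgeR adjusted p = 2.3e-15) in Lysfree, 2 comparisons that share their controls. Between Lysfree and Differentiated it differed by 0.69 ± 0.18 (SE, edgeR adjusted p = 0.0036), which was not a call.

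Of the collagen receptors, Itga11 reached 1 FPKM. Itga11 (chr9:62677826-62783982, plus strand) pairs with beta1, binds fibrillar collagen and is typical of fibroblasts. Itga11 measured 7.73, 6.37 and 7.08 FPKM in Undifferentiated, 0.504, 0.544 and 0.639 FPKM in Differentiated, and 4.52, 5.15 and 5.43 FPKM in Lysfree. The Differentiated libraries were far below both other groups, and Lysfree was below Undifferentiated without overlap. Itga11 fell 12.8-fold in Differentiated (log2 fold change −3.67 ± 0.12 SE, edgeR adjusted p = 5.7e-190) and was 9.35-fold higher in Lysfree than in Differentiated (log2 fold change 3.22 ± 0.16 SE, edgeR adjusted p = 7.6e-13). In Lysfree vs Undifferentiated the log2 fold change was −0.44 ± 0.13 (SE, edgeR adjusted p = 0.0055), short of a call.

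Itgad, the alpha subunit of a leukocyte integrin, was found at 81, 85 and 61 counts in Differentiated (1.16, 1.01 and 0.837 FPKM), at 0, 2 and 6 counts in Undifferentiated and at 3, 3 and 8 counts in Lysfree. The Differentiated libraries stood above all others. The log2 fold change was 4.96 ± 0.38 (SE, edgeR adjusted p = 3e-37) in Differentiated vs Undifferentiated and −4.08 ± 0.36 (SE, edgeR adjusted p = 6.2e-09) in Lysfree vs Differentiated. Of the 10 leukocyte markers, Adgre1, Itgam and Tyrobp were at 0 in every library, Ptprc and Cd52 had at most 3 counts, and the summed level was 19.3 to 23.6 FPKM in Undifferentiated, 9.56 to 11.3 FPKM in Differentiated and 12.8 to 14.7 FPKM in Lysfree. Cox6a2 overlaps Itgad on the opposite strand, and its log2 fold changes in these comparisons were −0.23 and 0.00. Whether the counting used strand is not given in the sources used here, and reads from the shared bases may have gone to either of them.

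The make-up of the alpha subunits differed between the groups. Laminin receptors made up 7.47% ± 0.46 (SD, n = 3) of the summed alpha subunit FPKM in Undifferentiated, 42.4% ± 0.38 (SD, n = 3) in Differentiated and 10.5% ± 0.31 (SD, n = 3) in Lysfree. RGD receptors made up 84.9% ± 0.61 (SD, n = 3), 55.9% ± 0.37 (SD, n = 3) and 84.4% ± 0.24 (SD, n = 3), and collagen receptors 7.25% ± 0.36 (SD, n = 3), 0.87% ± 0.05 (SD, n = 3) and 4.92% ± 0.51 (SD, n = 3), in the same order. Itga6 alone took 37.1% in Differentiated, and Itga5 took 50.4%. On counts, without the division by gene length, laminin receptors took a mean of 10.0%, 54.5% and 15.0% and RGD receptors 82.9%, 44.0% and 80.2%. Exact permutation tests of 3 libraries against 3 cannot go below a p of 0.1, so none is given for a share. The shares of laminin receptors did not overlap between any of the groups.

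Of the beta subunits at 1 FPKM or more, Itgb2, Itgb3 and Itgb5 fell in Differentiated. Itgb1, the partner of most alpha subunits, measured 116, 113 and 118 FPKM in Undifferentiated, 66.2, 67.6 and 66.7 FPKM in Differentiated, and 123, 103 and 103 FPKM in Lysfree. The Lysfree libraries spanned those of Undifferentiated. The log2 fold change of Itgb1 was −0.82 ± 0.05 (SE, edgeR adjusted p = 1.3e-55) in Differentiated vs Undifferentiated, −0.03 ± 0.10 (SE, edgeR adjusted p = 0.82) in Lysfree vs Undifferentiated and 0.78 ± 0.09 (SE, edgeR adjusted p = 2.3e-07) in Lysfree vs Differentiated, below the fold change for a call throughout.

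Itgb5, which pairs with alphav and binds vitronectin, measured 79.0, 85.3 and 78.3 FPKM in Undifferentiated, 27.4, 27.7 and 25.5 FPKM in Differentiated, and 39.7, 44.3 and 42.5 FPKM in Lysfree. Itgb3, the other vitronectin receptor subunit, measured 14.0, 14.4 and 13.9 FPKM in Undifferentiated, 5.76, 5.81 and 4.90 FPKM in Differentiated, and 9.97, 8.58 and 8.16 FPKM in Lysfree. For both genes the Lysfree libraries lay between the other groups without overlap. In Differentiated vs Undifferentiated, Itgb5 fell by 1.62 (SE 0.06, edgeR adjusted p = 2e-178) and Itgb3 fell by 1.39 (SE 0.07, edgeR adjusted p = 2e-82) on the log2 scale. In Lysfree vs Undifferentiated the values were −0.89 ± 0.10 (SE) for Itgb5 and −0.62 ± 0.11 (SE) for Itgb3, and in Lysfree vs Differentiated 0.71 ± 0.09 (SE) and 0.76 ± 0.11 (SE), none of them a call.

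Itgb2, the common beta subunit of leukocyte integrins, measured 4.12, 3.67 and 5.09 FPKM in Undifferentiated, 0.424, 0.598 and 0.466 FPKM in Differentiated, and 1.90, 2.32 and 2.36 FPKM in Lysfree. The 3 groups did not overlap. Itgb2 fell in Differentiated (log2 fold change −3.11 ± 0.18 SE, edgeR adjusted p = 1.7e-65) and was higher in Lysfree than in Differentiated (2.20 ± 0.23 SE, edgeR adjusted p = 7e-08). Its direction was opposite to that of Itgad, an alpha subunit that pairs with it. In Lysfree vs Undifferentiated the log2 fold change was −0.91 ± 0.17 (SE, edgeR adjusted p = 6e-05), and it would be a call without Undifferentiated 2 (−1.02).

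Itgb7 (chr15:102215995-102231944, minus strand), the beta subunit of gut-homing lymphocyte receptors, was highest without lysine. It measured 0.119, 0.214 and 0.361 FPKM in Undifferentiated, 0.140, 0.271 and 0.134 FPKM in Differentiated, and 2.01, 1.97 and 1.82 FPKM in Lysfree. Undifferentiated and Differentiated overlapped, and every Lysfree library was above both. The log2 fold change was 3.15 ± 0.31 (SE, edgeR adjusted p = 2.5e-10) in Lysfree vs Undifferentiated and 3.43 ± 0.29 (SE, edgeR adjusted p = 3.8e-09) in Lysfree vs Differentiated. Its alpha partners remained rare, with at most 3 counts of Itga4 and 8 counts of Itgae in any Lysfree library.

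Summed over all members, alpha subunits came to 108 to 115 FPKM in Undifferentiated, 169.6 to 185 FPKM in Differentiated and 114 to 119 FPKM in Lysfree. Beta subunits came to 214 to 217, 98.0 to 102 and 158 to 177 FPKM. On FPKM, the beta sum was above the alpha sum in Undifferentiated and Lysfree and below it in Differentiated. On counts the order in Lysfree turned, with 12875 to 13721 counts of alpha and 12237 to 12561 of beta subunits, while it held in both other groups. Itgb1 took 53.7% of the beta sum in Undifferentiated, 66.8% in Differentiated and 66.3% in Lysfree, and Itgb5 took 37.5%, 26.8% and 25.7%.

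**Figure D2:**
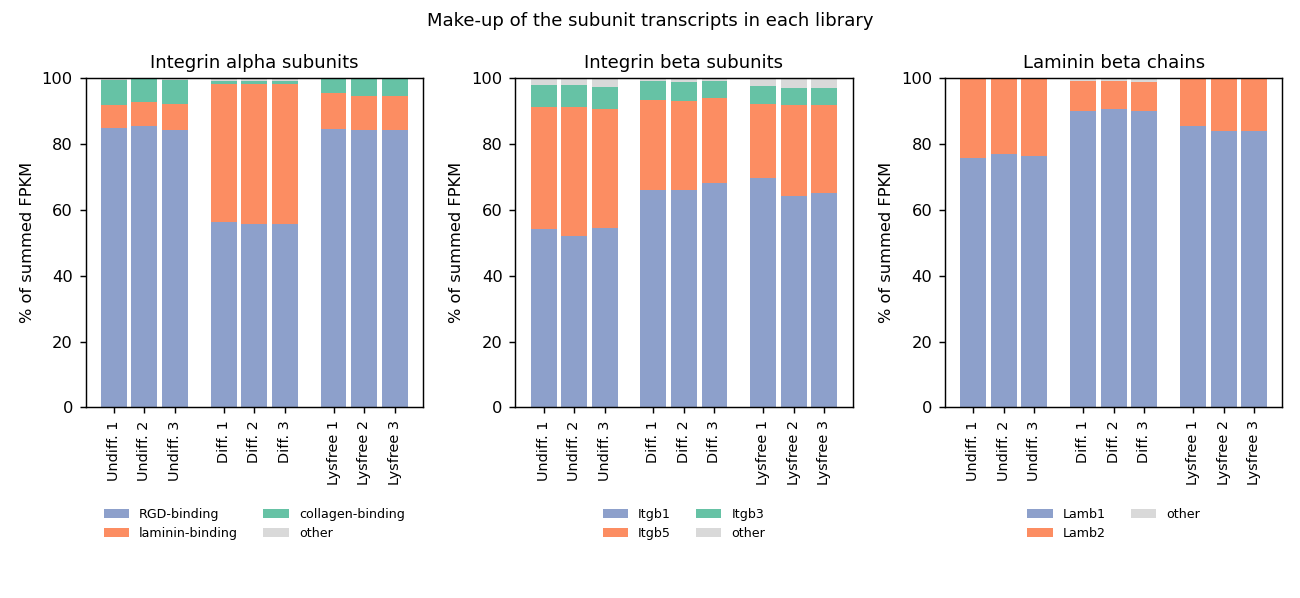
Shares of the summed FPKM (%, 0 to 100) in each of the 9 libraries, for integrin alpha subunits sorted by ligand, integrin beta subunits and laminin beta chains, with other members of each class in grey. Laminin receptors took 42.4% of alpha subunit transcripts in Differentiated, against 7.47% in Undifferentiated and 10.5% in Lysfree.

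The laminin chains of the trimer common in adipocytes were high in all groups. Lama4 measured 56.9, 52.0 and 54.7 FPKM in Undifferentiated, 47.5, 50.2 and 45.7 FPKM in Differentiated, and 39.4, 31.0 and 31.6 FPKM in Lysfree. Lamb1 measured 112, 104 and 107 FPKM, then 95.6, 97.7 and 91.9 FPKM, then 85.7, 83.1 and 86.1 FPKM, and Lamc1 measured 96.2, 81.8 and 92.1 FPKM, then 112, 116 and 105 FPKM, then 81.8, 84.6 and 88.6 FPKM, in the same order of groups. On FPKM, Lama4 and Lamb1 were lowest in Lysfree without overlap with either other group. For Lamb1, edgeR's test on counts found no difference between Lysfree and Differentiated (−0.10 ± 0.07 SE on the log2 scale, adjusted p = 0.35). With library sizes alone this Lamb1 value was −0.02, and the scale of FPKM relative to counts differed between these groups. The log2 fold changes of these chains lay between −0.64 ± 0.10 (SE, edgeR adjusted p = 2.8e-06), for Lama4 in Lysfree vs Undifferentiated, and 0.27 ± 0.05 (SE, edgeR adjusted p = 2.4e-08), for Lamc1 in Differentiated vs Undifferentiated, and none was a call.

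Lamb2, a beta chain typical of muscle, nerve and kidney basement membranes, measured 35.3, 30.8 and 32.8 FPKM in Undifferentiated, 9.85, 9.30 and 9.09 FPKM in Differentiated, and 14.3, 15.6 and 16.2 FPKM in Lysfree. The 3 groups did not overlap. Lamb2 fell by 1.84 (SE 0.06, edgeR adjusted p = 3.6e-201) in Differentiated and by 1.05 (SE 0.10, edgeR adjusted p = 2e-10) in Lysfree on the log2 scale, both against the same Undifferentiated libraries, and differed by 0.77 ± 0.10 (SE, edgeR adjusted p = 1.1e-06) between Lysfree and Differentiated, short of a call. Lamb1 made up 76.5% of the laminin beta chain FPKM in Undifferentiated, 90.3% in Differentiated and 84.6% in Lysfree.

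Lama5, the other alpha chain that is broadly made in basement membranes, lies at chr2:180176373-180225859 on the minus strand and measured 1.36, 0.973 and 1.33 FPKM in Undifferentiated, 0.778, 0.806 and 0.767 FPKM in Differentiated, and 1.65, 2.09 and 1.96 FPKM in Lysfree. The 3 groups did not overlap, with Lysfree highest. Lama5 was 2.54-fold higher in Lysfree than in Differentiated (log2 fold change 1.34 ± 0.14 SE, edgeR adjusted p = 8.7e-08), while −0.66 ± 0.12 (SE) in Differentiated vs Undifferentiated and 0.69 ± 0.15 (SE) in Lysfree vs Undifferentiated were not calls. Lama4 nevertheless made up 97.6%, 98.3% and 94.5% of the laminin alpha chain FPKM in Undifferentiated, Differentiated and Lysfree.

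Among the 18 subunits that stayed under 1 FPKM in every group, Lamb3, Itgae, Itga9, Itga8, Itga2, Itgal and Lama2 were called in some comparison. Lamb3, a chain of epithelial laminin, had 83, 92 and 102 counts in Differentiated, against 12, 14 and 11 in Undifferentiated and 14, 25 and 14 in Lysfree, with log2 fold changes of 3.10 ± 0.27 (SE, edgeR adjusted p = 7.5e-30) in Differentiated vs Undifferentiated and −2.48 ± 0.27 (SE, edgeR adjusted p = 1.3e-07) in Lysfree vs Differentiated. The Lamb3 gene contains G0s2 and Hsd11b1 on the opposite strand, whose log2 fold changes were 6.64 and 3.32 in the first comparison and −6.60 and −3.05 in the last, and their part in the Lamb3 counts was not tested. Of 8 epithelial markers, 5 had at most 3 counts in every Differentiated library, Epcam among them at 0. Of the 6 tested in Differentiated vs Undifferentiated, 3 were higher and 0 lower (median log2 fold change 2.58), where 10.4% and 11.4% of all genes tested were. Of the 5 tested in Lysfree vs Differentiated, 0 were higher and 3 lower (median −2.44), where 8.14% and 10.5% of all genes were. Their summed level was 0.0754 to 0.377 FPKM in Undifferentiated, 1.54 to 2.06 FPKM in Differentiated and 0.0413 to 0.0879 FPKM in Lysfree. The part of these markers in the Lamb3 result was not tested. Itgae, the receptor of lymphocytes for E-cadherin, had 25, 44 and 28 counts in Differentiated, 7, 5 and 5 in Undifferentiated and 1, 8 and 0 in Lysfree, and its overlapping neighbour Haspin moved with it (2.61 in Differentiated vs Undifferentiated and −2.33 in Lysfree vs Differentiated on the log2 scale), which was likewise not tested.

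Itga9, a receptor for tenascin and osteopontin, had 34, 15 and 14 counts in Undifferentiated, 0 in every Differentiated library and 5, 6 and 7 in Lysfree. Set against a floor of 3 counts per Differentiated library, the mean scaled counts of Itga9 were 5.94 times that floor in Undifferentiated and 1.86 times it in Lysfree. These ratios leave out counting error. Itga8, an RGD receptor, had 13, 25 and 14 counts in Undifferentiated, 0, 6 and 1 in Differentiated and 0, 1 and 1 in Lysfree. Scaled to the total counts of the libraries, its counts were 23.3 times as many in Undifferentiated as in Lysfree (95% exact interval of the ratio 6.13 to 197, for counting error only). Itga2, a collagen receptor, was lower in Lysfree, with 1, 0 and 6 counts against 16, 21 and 18 in Differentiated and 14, 12 and 24 in Undifferentiated. Lama2 and Itgal fell in both groups in the differentiation medium against the same Undifferentiated libraries, with log2 fold changes of −2.62 and −2.18 for Lama2 and −1.27 and −2.65 for Itgal in Differentiated and Lysfree. The call of Itgal in Differentiated was lost without Undifferentiated 1 (−0.86) and without Differentiated 2 (−0.78), that of Itga9 in Lysfree vs Undifferentiated without Undifferentiated 1 (−1.21, edgeR adjusted p = 0.14), and that of Itga2 in Lysfree vs Undifferentiated without Undifferentiated 3 (−2.18, edgeR adjusted p = 0.085). Itga1, Itga10, Itgb4 and Itgb8 were not called, and Itga1 shares its strand with Pelo, counted at 1043 counts over the 9 libraries. Itga4, Itgax, Itgb6, Lama1, Lama3 and Lamc3 had at most 3 counts in every library and Itgam had 0.

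**Figure D3:**
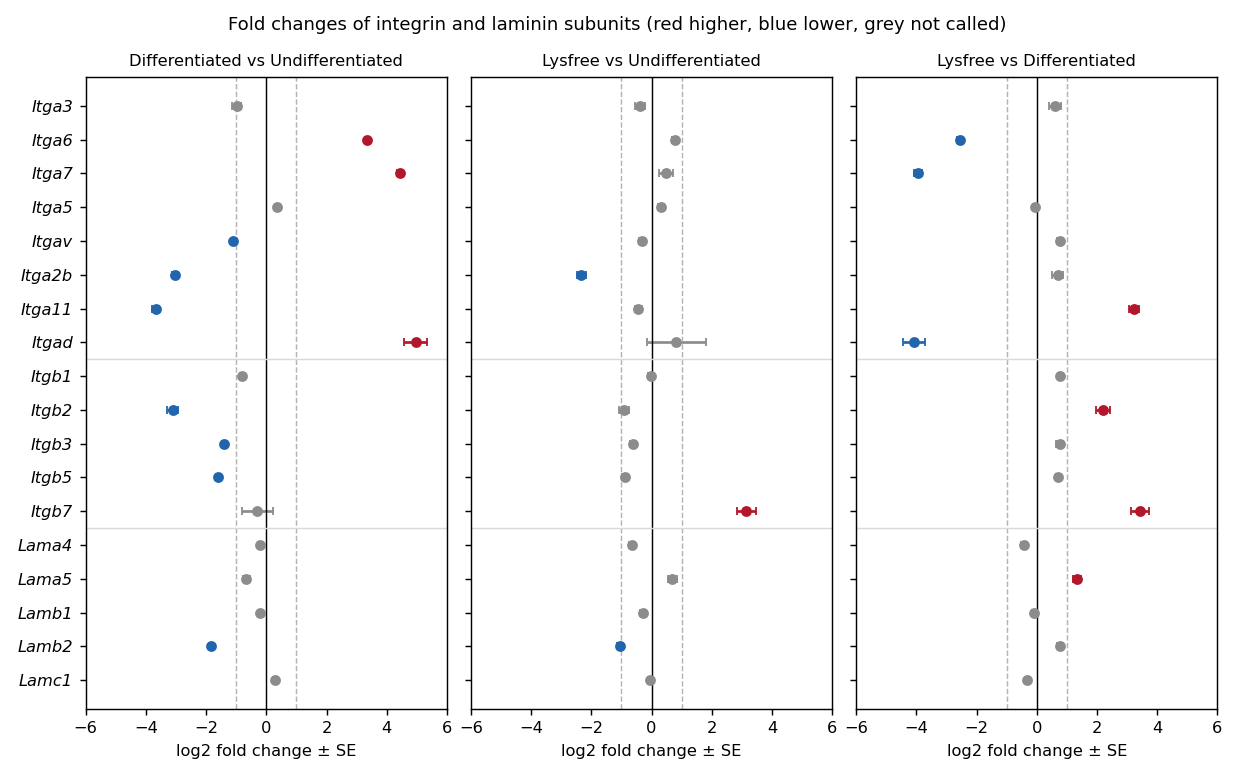
Log2 fold change ± SE of the 18 subunits at 1 FPKM or more in the 3 comparisons (n = 3 libraries a group), in red where called higher, in blue where called lower and in grey where not called, with dashed lines at a 2-fold change. Itga6 and Itga7 moved to opposite sides in Differentiated vs Undifferentiated and Lysfree vs Differentiated, and so did Itga11 and Itgb2.

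The ligands and partners of the subunits were given by lists written from gene symbols. Over all genes tested, 10.4% were higher and 11.4% lower in Differentiated vs Undifferentiated (median log2 fold change 0.02). The shares were 8.14% and 10.5% in Lysfree vs Differentiated (median −0.06) and 5.52% and 8.76% in Lysfree vs Undifferentiated (median −0.02). Of 16 glycoproteins that bind integrins, 0 were higher and 11 were lower in Differentiated vs Undifferentiated (median log2 fold change −1.84), while 6 were higher and 1 was lower in Lysfree vs Differentiated (median 0.29), and 1 was higher and 6 were lower in Lysfree vs Undifferentiated (median −0.74). Fn1, fibronectin, the ligand of alpha5 beta1, had a mean of 380.3 FPKM in Undifferentiated, 58.6 FPKM in Differentiated and 719 FPKM in Lysfree. It fell by 2.72 (SE 0.05, edgeR adjusted p below the smallest number that could be stored) in Differentiated and was 3.68 ± 0.09 (SE, edgeR adjusted p = 5e-18) higher in Lysfree than in Differentiated on the log2 scale. The log2 fold changes of Itga5 in those comparisons were 0.34 and −0.04. In Lysfree vs Undifferentiated, Fn1 was at 0.97 ± 0.09 (SE), short of a call. Edil3, a ligand of alphav integrins, Thbs2, a thrombospondin, and Tgfbi fell in Differentiated, with log2 fold changes of −3.63, −3.35 and −3.09. Postn, periostin, and Thbs2 fell in Lysfree vs Undifferentiated (−3.01 and −2.62) while Nov, a matricellular protein, rose by 2.03. Nov and Tgfbi were also higher in Lysfree than in Differentiated, by 4.27 and 2.02.

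Of 8 fibrillar collagens listed as ligands of collagen receptors, 5 were lower in Differentiated (median −1.93) and 6 in Lysfree (median −1.34) against the same Undifferentiated libraries. None was higher in edgeR's test. Over all genes tested, 11.4% and 8.76% were lower and 10.4% and 5.52% higher in these comparisons. Without Lysfree 1, 5 were lower in Lysfree, as Col5a3 was no longer called (−0.89). Col11a1, Col1a2 and Col1a1 had log2 fold changes of −3.48, −2.71 and −2.41 in Differentiated and −2.29, −1.66 and −2.48 in Lysfree. In Lysfree vs Differentiated, Col11a1 and Col1a2 were higher by 1.18 and 1.05 and Col5a3 fell by 2.01 (median 0.29). Itga11 stood at 5.04 FPKM on average in Lysfree, where Col1a1 stood at 327 FPKM, and at 0.562 FPKM in Differentiated, where Col1a1 stood at 362 FPKM.

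Of 18 basement membrane partners of laminin, 3 were higher and 5 lower in Differentiated vs Undifferentiated (median −0.17), 0 higher and 7 lower in Lysfree vs Undifferentiated (median −0.92), and 3 higher and 6 lower in Lysfree vs Differentiated (median −0.48). Without Lysfree 1 the last counts were 2 higher and 5 lower, as Col4a3 (1.83) and Hspg2 (−0.96) were no longer called. With all libraries, 10.4% and 11.4%, 5.52% and 8.76%, and 8.14% and 10.5% of all genes tested were higher and lower in the same order of comparisons. Nid1, nidogen, which joins laminin to collagen IV, had a mean of 188 FPKM in Undifferentiated, 189 FPKM in Differentiated and 83.2 FPKM in Lysfree, and was lower in Lysfree than in Differentiated (log2 fold change −1.12 ± 0.08 SE, edgeR adjusted p = 1.4e-10). Hspg2, perlecan, had means of 43.6, 45.7 and 21.8 FPKM, and was lower by just over the limit for a call in Lysfree vs Differentiated (2-fold, edgeR adjusted p = 4.9e-08). Both were close to their Undifferentiated level in Differentiated (−0.02 ± 0.05 SE for Nid1 and 0.04 ± 0.05 SE for Hspg2), as the main laminin chains were. Npnt, nephronectin, a ligand of the alpha8 subunit, had 42, 65 and 25 counts in Undifferentiated, 176, 168 and 165 in Differentiated and 2, 3 and 0 in Lysfree, and it was lower in Lysfree than in either group. Scaled to the total counts of the libraries, its counts were 103 times as many in Differentiated as in Lysfree (95% exact interval of the ratio 43.9 to 319) and 23.7 times as many in Undifferentiated (9.88 to 74.0), for counting error only. Col15a1, a collagen of basement membranes, and Nid2 fell in Lysfree vs Differentiated (log2 fold changes of −4.03 and −3.66), and Nid2 and Smoc2 fell in Lysfree vs Undifferentiated (−4.44 and −3.81). In Differentiated vs Undifferentiated, Smoc2 and Col4a5 fell (−6.80 and −2.26) and Col15a1 rose by 2.30. Nid2 shares bases with Rtraf on the opposite strand.

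**Figure D4:**
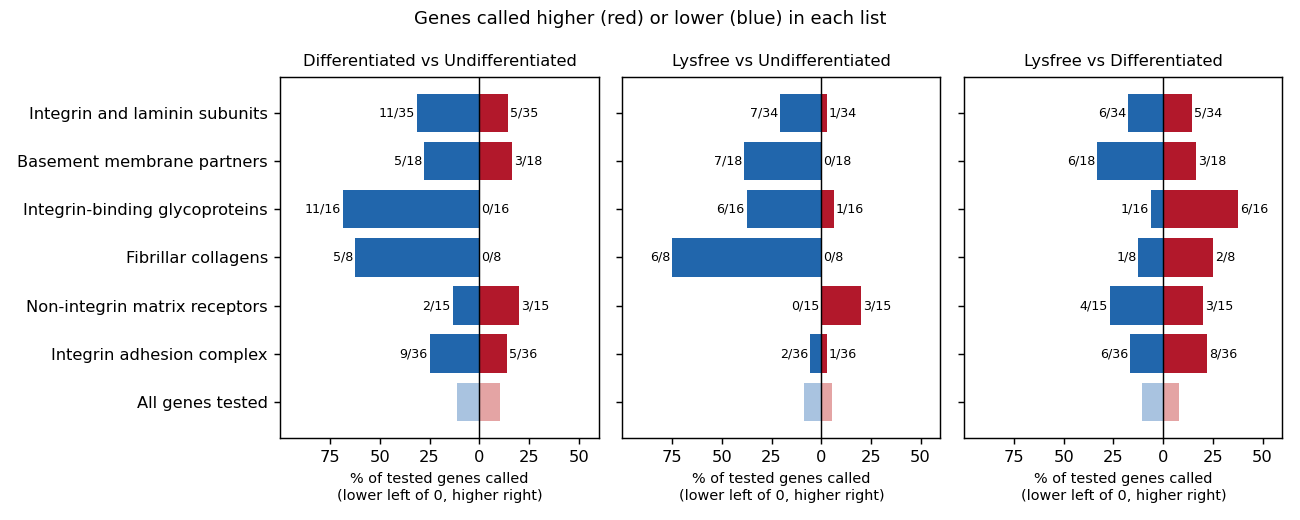
Percent of the tested genes of each list that were called higher (red, right of 0) or lower (blue, left of 0) in each comparison, with the counts printed at the bars and the percent over all genes tested in pale colours. Glycoproteins that bind integrins had 11 of 16 lower in Differentiated vs Undifferentiated (11.4% of all genes) and 6 of 16 higher in Lysfree vs Differentiated (8.14%).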

How the data were processed

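Libraries were grouped by the sample labels, 3 each. The authors trimmed reads, mapped them to mm10 with HISAT2 2.0.5 and counted them with featureCounts 1.5.0-p3 (versions from the submitters' processing notes). The strand setting and annotation release are not given in the sources used here. The deposited counts are whole reads per gene. The deposited FPKM are scaled by gene length and a library total other than the sum of the counts. As a multiple of the value from that sum, FPKM were 0.988 to 0.994 in Undifferentiated, 1.03 to 1.04 in Differentiated and 0.932 to 0.953 in Lysfree. Against Differentiated, FPKM in Lysfree therefore read lower than counts divided by their sum. Counts were tested with edgeR 4.0.16 (TMM, glmQLFit and glmQLFTest, R 4.3.3) over genes counted at least once in the 6 libraries compared, with Benjamini-Hochberg adjustment over all of them. In Differentiated vs Undifferentiated the fit found no variation between genes beyond the trend, and 286 p-values were too small to hold. SE is the log2 fold change divided by the root of F. Values per library are given for subunits with a mean of at least 1 FPKM in a group, and up to 3 called genes of largest fold per list and comparison are named, of those with a mean of at least 1 FPKM in a group, besides Fn1, Nid1, Hspg2, Tln1, Fermt2 and Ptk2. The subunits and lists were chosen with earlier results of these data known, 1 of the 37 genes that match the name rule is not reported here, and the overlapping genes named were chosen after their values were seen. The test was checked on simulated data. Alternatives were DESeq2 1.42.0, limma 3.58.1 on log2(FPKM + 1) and log2(FPKM + 0.1), other scalings and filters, a single fit, a replicate block, no fold threshold and leaving out each library.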

Additional observations from a re-analysis of the deposited data

Results flagged for a closer look

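The effect of the differentiation medium differed between cells with and without lysine, as tested by Lysfree vs Differentiated in edgeR, for 11 of the 34 subunits tested, where 18.7% of the 24130 genes tested were called. Among those of at least 1 FPKM in a group, on the log2 scale, this difference was −2.56 for Itga6, −3.95 for Itga7 and −4.08 for Itgad, which were lower without lysine. It was 3.22 for Itga11, 2.20 for Itgb2, 3.43 for Itgb7 and 1.34 for Lama5, which were higher without lysine. The medium moved Lama5 by −0.66 with lysine and by 0.69 without it, neither of which was a call on its own. Itgb7 stood at −0.30 with lysine and 3.15 without it.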

How the results depend on the processing

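Leaving out 1 library at a time gave 5 higher and 11 to 12 lower subunits in Differentiated vs Undifferentiated, 1 higher and 6 to 8 lower in Lysfree vs Undifferentiated, and 5 higher and 6 lower in Lysfree vs Differentiated. Calls were lost for Itgal (−0.86) and Itga9 (−1.21) without Undifferentiated 1, Itga2 (−2.18) without Undifferentiated 3 and Itgal (−0.78) without Differentiated 2, and gained for Itga3 without Undifferentiated 1 (−1.03), Differentiated 2 (−1.16) or Differentiated 3 (−1.03), Itgb2 (−1.02) without Undifferentiated 2 and Itgb4 (−1.05) without Lysfree 3. DESeq2 and a single fit of all 9 libraries also did not call Itgal in Differentiated vs Undifferentiated (adjusted p = 0.12 and 0.069). With limma on log2(FPKM + 1), where low levels are shrunk, the counts were 2 higher and 6 lower, 1 higher and 2 lower, and 3 higher and 2 lower in the same order, among 1447 higher and 1273 lower, 553 and 909, and 822 and 1367 of all genes. With log2(FPKM + 0.1), 3 were lower in Lysfree vs Undifferentiated. Without a fold threshold, 7 were higher and 17 lower in Differentiated vs Undifferentiated (5605 and 5655 of all genes), 4 higher and 15 lower in Lysfree vs Undifferentiated (4316 and 4112), and 12 higher and 8 lower in Lysfree vs Differentiated (4749 and 4531). Uncalled values that changed sign were Itgb7 in Differentiated vs Undifferentiated (−0.73 to 0.13, positive without Undifferentiated 3), Lamc1 in Lysfree vs Undifferentiated (−0.099 to 0.014, positive without Undifferentiated 1), Itgb1 in Lysfree vs Undifferentiated (−0.15 to 0.0086, positive without Lysfree 2 or Lysfree 3) and Itga5 in Lysfree vs Differentiated (0.031 with library sizes alone).

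Nothing in the labels states that replicate numbers pair the libraries. Correlations of deviations between libraries of the same number were −0.084 to 0.115, which cannot show whether the cultures were paired. With a replicate block, 5 were higher and 12 lower in Differentiated vs Undifferentiated (Itga3 was added at −1.01), 1 and 7 in Lysfree vs Undifferentiated, and 5 and 6 in Lysfree vs Differentiated. Below about 3 counts per library, no direction could be read for 7 subunits.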

Other observations

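The receptors other than integrins and the proteins that join integrins to actin were also described by lists. Over all genes tested, 10.4% were higher and 11.4% lower in Differentiated vs Undifferentiated (median log2 fold change 0.02). The shares were 5.52% and 8.76% in Lysfree vs Undifferentiated (median −0.02) and 8.14% and 10.5% in Lysfree vs Differentiated (median −0.06). Of 15 receptors other than integrins, 3 were higher and 2 lower in Differentiated vs Undifferentiated (median log2 fold change −0.24), 3 were higher and 0 lower in Lysfree vs Undifferentiated in edgeR's test (median 0.19), and 3 were higher and 4 lower in Lysfree vs Differentiated (median 0.42). Cd36, a receptor for thrombospondin and fatty acids, rose by 4.71 in Differentiated and by 2.18 in Lysfree against Undifferentiated, and it fell by 2.54 in Lysfree vs Differentiated. It was also one of the 11 adipocyte markers. Sdc4, a syndecan of focal adhesions, rose by 1.58 in Differentiated and Sdc2 fell by 2.26. Cd44, the hyaluronan receptor, and Cd47, the thrombospondin receptor, rose by 1.42 and 1.41 in Lysfree vs Undifferentiated, and Cd47 and Ddr2, a collagen receptor kinase, were higher by 1.72 and 1.57 in Lysfree than in Differentiated.

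Of 36 proteins of the integrin adhesion complex, 5 were higher and 9 lower in Differentiated vs Undifferentiated (median −0.24), 1 higher and 2 lower in Lysfree vs Undifferentiated (median −0.16), and 8 higher and 6 lower in Lysfree vs Differentiated (median 0.20). Without Lysfree 1 the last counts were 7 and 5, as Tgfb1i1 (1.00) and Tns4 (−1.46) were no longer called. With all libraries, 10.4% and 11.4%, 5.52% and 8.76%, and 8.14% and 10.5% of all genes tested were higher and lower in the same order of comparisons. Tln1, talin, which activates integrins, had log2 fold changes of −0.79 ± 0.05 (SE) in Differentiated and −0.67 ± 0.10 (SE) in Lysfree against Undifferentiated and 0.11 ± 0.09 (SE) between Lysfree and Differentiated. Fermt2, kindlin, had 0.60 ± 0.06, 0.43 ± 0.10 and −0.19 ± 0.09 (SE), and Ptk2, focal adhesion kinase, 0.32 ± 0.06, 0.34 ± 0.10 and 0.01 ± 0.10 (SE), in the same order, none of them a call. Lims2 and Kank1 rose by 4.03 and 2.61 in Differentiated and were lower in Lysfree than in Differentiated (log2 fold changes of −3.37 and −3.50), and Tns3, a tensin, fell by 2.86 in Differentiated and by 1.12 in Lysfree. Ptk2b fell by 2.20 in Lysfree vs Differentiated, and Fermt3 rose by 1.57 and Src fell by 1.13 in Lysfree vs Undifferentiated.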
